A study of Homo sapiens with 4 samples.

Results

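The genes described here are 10 whose products carry the inflammatory output of monocytes: the cytokines TNF and IL1B, the chemokines CCL2, CCL3, CCL4, CCL5, CXCL8 and CXCL2, the adhesion molecule ICAM1, and PTGS2, the inducible cyclooxygenase. They were chosen by name, as every probe set whose platform annotation gives exactly 1 of these symbols. Of the 10 genes, 9 had such a probe set, 18 probe sets in all out of 54675 on the array. The CCL3 probe set also carries the names of the near-identical copies CCL3L1 and CCL3L3 and so belongs to no single gene.

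Gene expression was measured in U937, an established human lymphoma line of monocytic character, on Affymetrix U133 Plus 2.0 arrays. The control cells had received dimethyl sulfoxide (DMSO), and the treated cells shikonin, a red naphthoquinone from gromwell roots, at 100 nM for 3 h. Each group had 2 samples with 1 array each. The labels name no time for the DMSO cells, no inflammatory stimulus or differentiating agent in either group, and no separate cultures. Each p-value therefore reflects only spread among these samples, which may be technical. Part of that spread is estimated from other probe sets of similar signal. The comparison asks how transcript levels changed with shikonin against solvent alone.

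As background, monocytes keep these genes at a low or moderate level and induce them within hours of a danger signal. TNF and interleukin 1 beta are the early cytokines that act on neighbouring cells through their own receptors. Chemokines recruit leukocytes: those of the CC group, such as CCL2, draw mainly monocytes and T cells, and CXCL8 and CXCL2 draw mainly neutrophils. Transcription factors of the NF-kB, AP-1 and C/EBP families bind the promoters of many of these genes.

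The members differ in the letters just upstream of their start sites. The table of promoters from RefSeq (GRCh38.p14) held 7 of the 10 members, and CCL2, CCL4 and CCL5 were not in it. The window searched ran from 250 bases before the start to 50 bases from it on, on both strands, for 6 motifs. The 4 members with a sequence in this table that were lower after shikonin and CXCL2, which did not pass the test, are shown 5' to 3' from 250 bases before the start site up to it, with the matched letters in capitals.
TNF, chr6:31575315-31575564, plus strand: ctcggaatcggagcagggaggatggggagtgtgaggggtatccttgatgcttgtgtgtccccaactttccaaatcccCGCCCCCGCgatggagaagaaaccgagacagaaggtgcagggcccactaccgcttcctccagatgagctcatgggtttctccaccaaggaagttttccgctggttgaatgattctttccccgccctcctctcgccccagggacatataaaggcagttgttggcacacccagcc
IL1B, chr2:112836780-112837029, minus strand: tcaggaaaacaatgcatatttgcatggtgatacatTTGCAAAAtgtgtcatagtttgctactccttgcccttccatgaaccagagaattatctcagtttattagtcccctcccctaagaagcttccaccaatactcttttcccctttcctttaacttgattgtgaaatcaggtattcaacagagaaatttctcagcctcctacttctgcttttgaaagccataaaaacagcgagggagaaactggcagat
CXCL8, chr4:73740319-73740568, plus strand: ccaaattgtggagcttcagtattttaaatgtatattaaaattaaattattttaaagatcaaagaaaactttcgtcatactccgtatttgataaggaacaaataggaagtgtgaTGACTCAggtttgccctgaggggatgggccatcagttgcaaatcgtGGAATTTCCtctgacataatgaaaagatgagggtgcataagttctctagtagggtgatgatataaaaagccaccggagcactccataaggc
ICAM1, chr19:10270870-10271119, plus strand: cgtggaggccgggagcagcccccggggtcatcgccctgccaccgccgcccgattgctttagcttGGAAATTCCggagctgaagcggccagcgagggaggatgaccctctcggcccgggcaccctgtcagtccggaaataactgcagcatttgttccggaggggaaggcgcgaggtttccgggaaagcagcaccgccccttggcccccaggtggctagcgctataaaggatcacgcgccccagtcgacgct
CXCL2, chr4:74099196-74099445, minus strand: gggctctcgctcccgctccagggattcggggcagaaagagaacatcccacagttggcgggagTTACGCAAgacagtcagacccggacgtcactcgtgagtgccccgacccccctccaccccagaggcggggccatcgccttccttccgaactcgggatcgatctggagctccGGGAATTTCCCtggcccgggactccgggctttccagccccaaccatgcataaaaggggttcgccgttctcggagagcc
In TNF the capitals mark the EGR motif GCGNGGGCG, read on the opposite strand from 173 to 165 bases before the start. In IL1B they mark the C/EBP motif TTGCNNAA. In CXCL8 they mark the AP-1 motif TGANTCA, from 137 to 131 bases before the start, and the kappaB-like motif GGANNTTCC, from 91 to 83. In ICAM1 they mark the kappaB-like motif from 186 to 178 bases before the start. In CXCL2 they mark the C/EBP motif, read on the opposite strand, and a match to the longer kappaB consensus, which overlaps a kappaB-like match from 77 to 69 bases before the start.

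The kappaB-like motif was in 3 of the 7 member promoters and in 4.56% of the 35116 promoters of the same length. The C/EBP motif was in 4 of the 7, those of IL1B, CCL3, CXCL2 and PTGS2, and in 10.5% of all. The kappaB consensus, the AP-1 motif and the EGR motif were each in 1 of the 7 and in 11.3%, 7.71% and 9.43% of all. The core of the antioxidant response element, TGACNNNGC, was in no window of the 7 members and in 13.3% of all. CCL3 has 3 start sites in the table, and its match lay at 1 of them. Each member was counted once, by a match at any of its start sites, whereas the percentages count every promoter. Both CXCL8, which was lower after shikonin, and CXCL2, for which no change passed the test, hold the kappaB-like motif within 100 bases of the start.

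**Figure D1:**
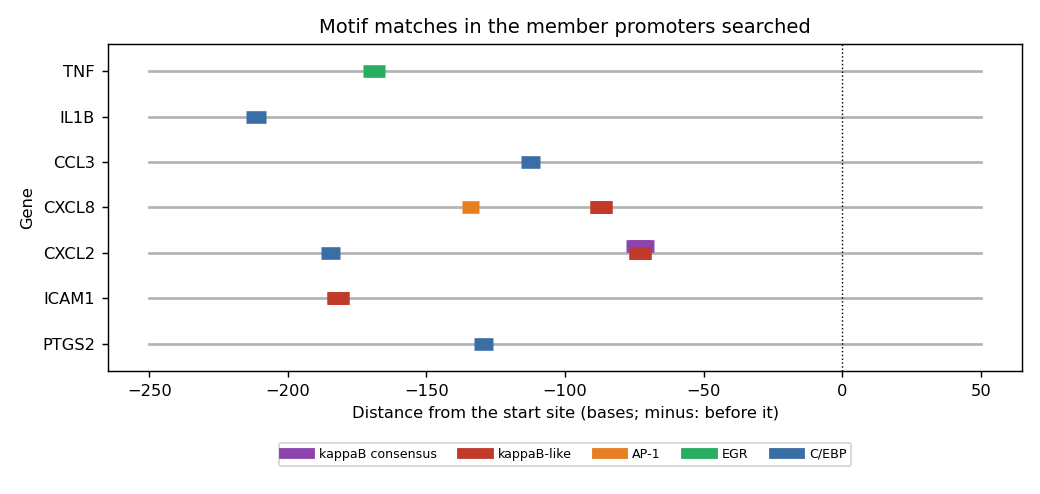
Each grey line is the window searched around the start site of 1 member (distance in bases on the x axis, minus values before the start), and each coloured block is a motif match on either strand. The kappaB-like blocks of CXCL8 and CXCL2 lie within 100 bases of the start, that of ICAM1 farther upstream, and TNF holds the EGR block alone.

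Median signals of the 4 arrays ran from 60.5 to 63.7. Of 12 monocytic markers with a probe set, 10 lay at or above the 40th percentile of every array, among them ELANE, AZU1, PRTN3 and LYZ, which encode proteins of myeloid granules, while CD14 and FCGR1A, markers of mature monocytes, lay below it on all 4. Their summed signal was 60203 and 63001 in DMSO and 57266 and 62195 after shikonin, and none of the 10 tested was called by limma (1 had an unadjusted p under 0.05). Epithelial markers lay at or above the 40th percentile on every array in 0 of 6 cases, T cell markers in 1 of 6 (CD2), erythroid markers in 1 of 4 (HBB) and B cell markers in 3 of 5. The B cell markers were CD79A, PAX5 and CD22, and the sum of that list was 716 and 732 in DMSO and 781 and 700 after shikonin. In bulk samples fewer cells of a type and less RNA per cell cannot be told apart.

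After shikonin, TNF, IL1B, CCL2, CXCL8 and ICAM1 were lower than in DMSO, CCL5 and CXCL2 did not pass the test on their brightest probe sets, and CCL4 and PTGS2 had too little signal to be tested. The fall of TNF was 3.13-fold, and those of the other 4 genes lay between 1.65-fold and 1.97-fold. A gene was called when its adjusted p was under 0.05 in limma, fitted on log2(signal + 9.94) over all 32768 probe sets kept and adjusted by the Benjamini-Hochberg method. Each gene is represented by its brightest tested probe set. Of 7 tested members, 5 were called lower and 0 higher (0 at an unadjusted p under 0.05 either), where 6.67% of 13559 genes tested were called lower and 5.00% higher. These 7 are not all members, since the filter on dim probe sets removed CCL4 and PTGS2. The median log2 change of the 7 was -0.73, against 0.0039 over all genes tested.

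The members were picked with earlier results of these arrays known, so their count describes them and supports nothing further. Both DMSO arrays lay above both shikonin arrays in 6 of the 7, as they did in 27.3% of all genes, although for CCL5 by a gap of only 0.0094 on the log2 scale. All 5 calls, like every other call given here, rest on letting the variance follow the signal. When limma used 1 prior variance for all signal levels it called 0 of 13559 genes, although 2407 had an unadjusted p under 0.05, and the adjusted p of the 5 members lay between 0.141 and 0.162. An exact two-sided permutation test of 2 arrays against 2 cannot go below p = 0.333. The 5 calls held without any 1 of the 4 arrays.

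TNF, which encodes the cytokine tumour necrosis factor, had the lowest log2 change of the members. Its 1 probe set read 601 and 640 in DMSO and 197 and 186 after shikonin. The 2 arrays of each group lay close together, and the groups were far apart: the spread within a group was 0.09 and 0.07 on the log2 scale, and the gap between the nearest arrays of the 2 groups was 1.56. The log2 change was -1.65 (SE 0.13, limma adjusted p = 1.70e-04), which is 3.13-fold lower with a 95% interval from 2.54-fold to 3.85-fold. Folds here are on the log2(signal + 9.94) scale and understate the change of dim probe sets. Among all genes tested, 29 had a lower log2 change than TNF.

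IL1B encodes interleukin 1 beta, which is made as an inactive precursor and cut by caspase 1. Both of its probe sets were called lower. The brighter one read 468 and 422 in DMSO and 221 and 256 after shikonin. The other read 424 and 427 in DMSO and 228 and 234 after shikonin. The groups did not overlap on either probe set. The log2 changes were -0.87 (SE 0.15, limma adjusted p = 0.00724) and -0.85 (SE 0.14, adjusted p = 0.00587), so 2 sets of probes for the same transcript gave nearly the same size. On the brighter probe set this is 1.83-fold lower, with a 95% interval from 1.46-fold to 2.31-fold.

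**Figure D2:**
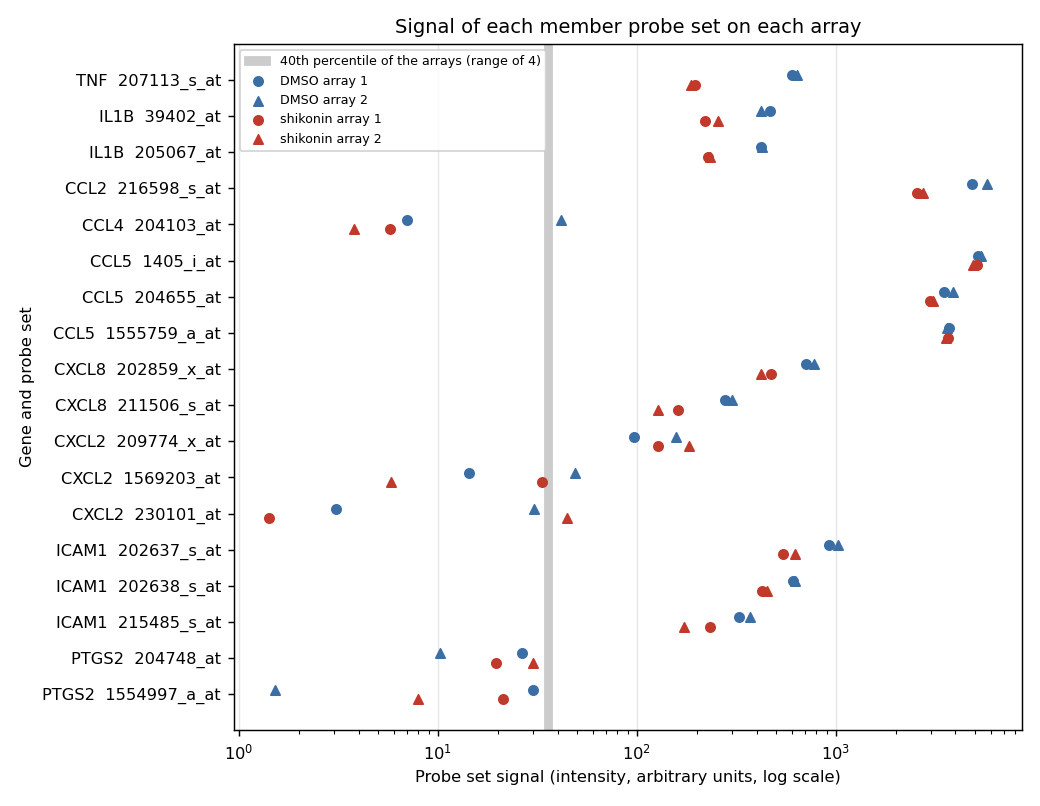
Each row is 1 of the 18 member probe sets, and each symbol its signal on 1 array (log x axis, arbitrary intensity units; blue for DMSO, red for shikonin; the grey band spans the 40th percentiles of the 4 arrays, 34.8 to 37.4). The red symbols lie left of the blue ones without overlap for TNF, IL1B, CCL2, CXCL8 and ICAM1, while both PTGS2 probe sets lie left of the band on all 4 arrays.

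Among the CC chemokines, CCL2, which attracts monocytes, was lower and CCL5, which attracts T cells and monocytes, was not called on its brightest probe set. CCL2 read 4817 and 5734 in DMSO and 2560 and 2756 after shikonin. Each DMSO array lay well above both shikonin arrays, with a gap of 0.80 on the log2 scale against a spread of 0.25 and 0.11 within the groups. The log2 change was -0.98 (SE 0.09, limma adjusted p = 2.80e-04), 1.97-fold lower with a 95% interval from 1.72-fold to 2.26-fold.

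CCL5 was bright in both groups. Its brightest probe set read 5177 and 5350 in DMSO and 5144 and 4901 after shikonin, a log2 change of -0.07 (95% interval -0.20 to 0.06, limma adjusted p = 0.535). A second probe set read 3704 and 3612 in DMSO and 3669 and 3602 after shikonin, with a log2 change of -0.01 (95% interval -0.14 to 0.13). On these 2 probe sets a change as large as that of CCL2 lies outside the interval. The third probe set was called lower, at -0.28 (SE 0.07, limma adjusted p = 0.0429), with signals of 3492 and 3885 in DMSO and 2991 and 3086 after shikonin. It lost the call without DMSO array 2 (0.194), shikonin array 1 (0.154) or shikonin array 2 (0.0932), and with no filter on dim probe sets (0.0912).

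CCL3 and CCL4, which encode the macrophage inflammatory proteins 1 alpha and 1 beta, could not be described as firmly. The probe set shared by CCL3, CCL3L1 and CCL3L3, which lies outside the rule for members, read 173 and 146 in DMSO and 120 and 130 after shikonin. Its groups did not overlap, and its log2 change of -0.32 (95% interval -0.82 to 0.17) did not pass (limma adjusted p = 0.42). The 1 probe set of CCL4 read 6.98 and 41.7 in DMSO and 5.75 and 3.79 after shikonin. On 3 of the 4 arrays CCL4 lay below the 40th percentile, and only DMSO array 2 lay above it. With no filter on dim probe sets its limma adjusted p was 0.457.

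Of the CXC chemokines, CXCL8 was lower and CXCL2 was not called. CXCL8, interleukin 8, attracts neutrophils, and both of its probe sets were called lower. The brighter one read 713 and 774 in DMSO and 474 and 421 after shikonin. The other read 279 and 300 in DMSO and 161 and 127 after shikonin. On neither probe set did the groups overlap. The log2 changes were -0.72 (SE 0.11, limma adjusted p = 0.00551) and -0.97 (SE 0.19, adjusted p = 0.0142), which on the brighter probe set is 1.65-fold lower with a 95% interval from 1.38-fold to 1.97-fold. The second probe set lost its call without DMSO array 2 (0.0644).

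CXCL2 encodes another neutrophil attractant. Its brightest probe set read 96.7 and 157 in DMSO and 128 and 182 after shikonin, so the groups overlapped. The log2 change was 0.29 with a wide 95% interval from -0.35 to 0.93 (limma adjusted p = 0.594), and it was -0.035 without DMSO array 1. The 95% interval of CXCL8, -0.98 to -0.46 on its brighter probe set, lies below that of CXCL2, but the difference between the 2 genes was not tested. The 2 other CXCL2 probe sets were too dim to be tested, each below the 40th percentile on 3 of 4 arrays.

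**Figure D3:**
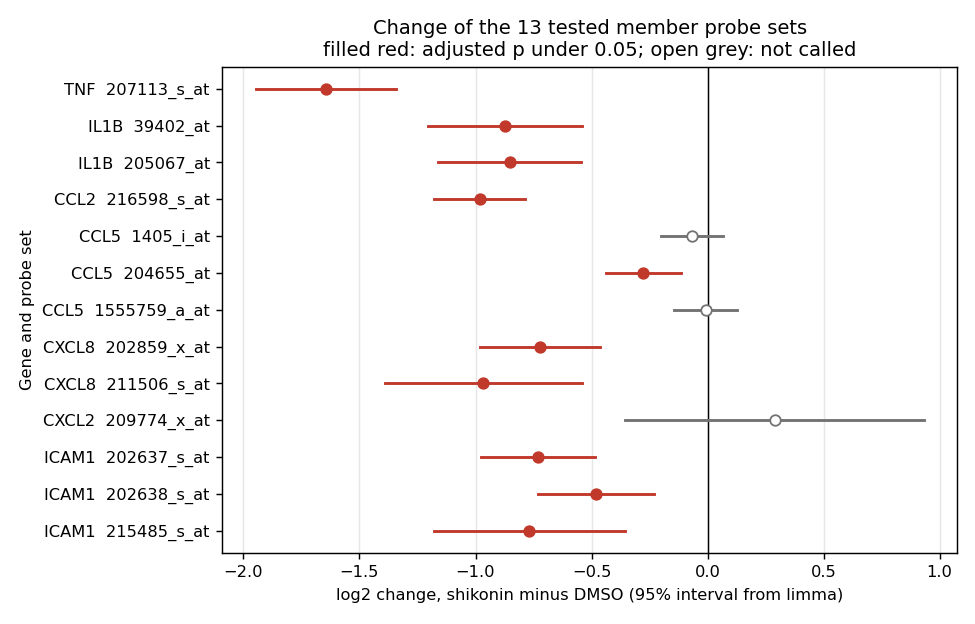
Points give the log2 change (shikonin minus DMSO) of the 13 tested member probe sets and bars the 95% interval from limma; filled red points were called at an adjusted p under 0.05. The 10 red points all lie left of 0, from -1.65 for TNF to -0.28 for 1 CCL5 probe set, and the 3 open points belong to CCL5 and CXCL2.

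ICAM1, the adhesion molecule that leukocyte integrins bind, was called lower on all 3 of its probe sets. The brightest read 930 and 1022 in DMSO and 545 and 624 after shikonin. The second read 611 and 623 in DMSO and 426 and 452 after shikonin, and the third 328 and 372 in DMSO and 234 and 173 after shikonin. In every case both shikonin arrays lay below both DMSO arrays. The log2 changes were -0.73 (SE 0.11), -0.48 (SE 0.11) and -0.77 (SE 0.18), with limma adjusted p of 0.0041, 0.0281 and 0.0321. The second was no longer called whichever array was left out (0.0551 to 0.104), and the third without DMSO array 1, DMSO array 2 or shikonin array 2 (0.0571, 0.127 and 0.119), while the brightest kept it. With no filter on dim probe sets the second (0.0501) and the third (0.0827) were not called, nor was the second with quantile normalization (0.0503).

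PTGS2 makes the prostaglandin precursor in inflamed tissue. Both of its 2 probe sets were dim in both groups. One read 26.6 and 10.3 in DMSO and 19.5 and 30.1 after shikonin, and the other 30.3 and 1.52 in DMSO and 21.3 and 7.95 after shikonin, all below the 40th percentile of their arrays. With no filter on dim probe sets the limma adjusted p were 0.827 and 0.955. A change in PTGS2 was therefore not measurable here.

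Counted by probe set, 10 of the 13 tested member probe sets were called lower, where 5.99% of 26403 single-gene probe sets were, and 0 higher. This count was 6 without DMSO array 2, where CCL5, the second CXCL8 and the 2 dimmer ICAM1 probe sets were no longer called, and 7 or 8 without each of the other arrays. Of the 4 members with several tested probe sets, IL1B, CXCL8 and ICAM1 were called on all of them and CCL5 on 1 of 3. Leaving out each array in turn moved the log2 change of TNF between -1.69 and -1.60, of CCL2 between -1.11 and -0.86, of IL1B between -0.98 and -0.77, of ICAM1 between -0.83 and -0.63 and of CXCL8 between -0.80 and -0.64. For CCL2 both ends of this range came from leaving out a DMSO array, which differ for it more than the shikonin arrays do. The count of all genes called lower, the background for the members, was 905 with all arrays and 590 without DMSO array 1.

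**Figure D4:**
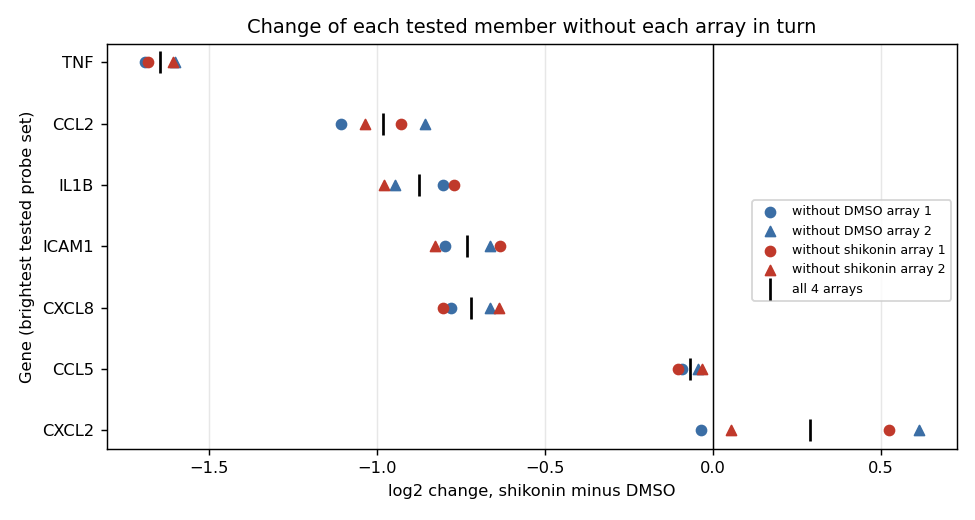
For each of the 7 tested members the black bar is the log2 change with all 4 arrays and the symbols the change without 1 array (blue for a DMSO array left out, red for a shikonin array). The symbols of the 5 called members stay left of -0.6, those of CCL5 stay between -0.10 and -0.03, and those of CXCL2 spread from -0.035 to 0.61.

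Of 13 tested receptors and integrins that these products act on, 1 fell, a share close to the 6.67% of all genes called lower, and 0 rose. At an unadjusted p under 0.05, 3 were lower and 0 higher. The median log2 change was -0.12, with a range from -0.51 to 0.31. The gene that fell was PTGER2, a receptor of prostaglandin E2, with signals of 2478 and 2094 in DMSO and 1622 and 1569 after shikonin (log2 change -0.51, SE 0.09, limma adjusted p = 0.00935). The shikonin arrays of PTGER2 lay below both DMSO arrays. Like the lists that follow, this list was written from textbook knowledge of the pathway with earlier results of these arrays known. The lists hold few genes and gave 0 to 2 calls in each direction, so nothing particular to a list is read from its count.

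Among 10 genes of cytokine release and maturation, 1 fell and 2 rose, with a median of 0.02. NLRP3, the sensor of an inflammasome that activates caspase 1, read 1220 and 1231 in DMSO and 524 and 491 after shikonin. It was 2.39-fold lower (log2 change -1.26, SE 0.09, limma adjusted p = 1.07e-04), and its other probe set changed by -1.64 and passed as well. CASP1, the protease that cuts the precursor of interleukin 1 beta, went the other way, with signals of 1122 and 1125 in DMSO and 1601 and 1672 after shikonin (log2 change 0.54, SE 0.08, adjusted p = 0.00372). All 4 other CASP1 probe sets rose too, by 0.47 to 0.91. So IL1B and NLRP3 were lower and CASP1 was higher in the same samples, each without overlap of the groups.

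The other gene of that list that rose was FRMD8, which stabilises the complex that releases TNF from the membrane. It was 1.45-fold higher on its brightest probe set (log2 change 0.54, limma adjusted p = 0.0125). Its 2 dimmer probe sets gave -0.26 and -0.52 and did not pass, the mean over all 3 was -0.08, and the call was lost without shikonin array 1 (0.0560). ADAM17, the protease that sheds TNF, changed by -0.01 (adjusted p = 0.97), a gene chosen for mention after its value was seen.

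Of 10 tested genes of prostaglandin and leukotriene synthesis, 2 fell and 1 rose on their brightest probe sets, with a median of -0.03. For TBXAS1, named after its values were seen, the other probe set was called higher, at 0.83, and the brightest was not called, at 0.29. PLA2G4A, the phospholipase that frees arachidonic acid from membranes, read 1848 and 1750 in DMSO and 1097 and 1001 after shikonin, 1.71-fold lower (log2 change -0.77, SE 0.08, limma adjusted p = 8.46e-04). PTGES3, a prostaglandin E synthase that also serves as a co-chaperone of HSP90, was 1.18-fold higher (limma adjusted p = 0.0162) and lost the call without DMSO array 2, shikonin array 1 or shikonin array 2 (0.0693, 0.0730 and 0.0998). With quantile normalization its log2 change went from 0.24 to 0.14 and did not pass (0.0806), nor did it with no filter on dim probe sets (0.0761). PTGDS, a prostaglandin D synthase, was called lower on its brightest probe set (-1.45, limma adjusted p = 0.0292). Its 2 dimmer probe sets gave 0.73 and 1.01 and did not pass, and the mean over all 3 was 0.10. PTGDS lost the call without DMSO array 1, DMSO array 2 or shikonin array 1, and with no filter on dim probe sets (limma adjusted p = 0.102). Its brightest probe set lay below the 40th percentile on shikonin array 1, at 34.7.

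Of 18 tested among 32 listed other cytokines and chemokines, 0 fell (2 at an unadjusted p under 0.05) and 1 rose, with a median of 0.02 and a range from -1.16 to 0.43. The lowest was CCL20, a chemokine that draws dendritic cells and T cells, named here after its value was seen, with signals of 107 and 70.8 in DMSO and 34.6 and 32.5 after shikonin, which did not pass (limma adjusted p = 0.112). The gene that rose was TGFB1, a cytokine that restrains inflammation, from 3464 and 3612 to 4272 and 4787 (log2 change 0.35, SE 0.07, limma adjusted p = 0.0163). Its other, dimmer probe set gave -0.61 and did not pass, the mean of both was -0.13, and the call was lost without DMSO array 1 (0.0571) or shikonin array 2 (0.0941).

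Among 8 tested adhesion molecules besides ICAM1, 1 fell (3 at an unadjusted p under 0.05) and 0 rose (0 at an unadjusted p under 0.05), with a median of -0.12. SELPLG, the ligand of P-selectin, changed by -0.34 on its brighter probe set (limma adjusted p = 0.0499). It was no longer called whichever array was left out, with quantile normalization (0.0685) or with no filter (0.0899). Its other probe set gave -0.38 and was not called (0.119), while the mean of both was (0.0388). The relatives ICAM2 and ICAM3, chosen for mention after their values were seen, were not called, at -0.37 and 0.09. Probe sets other than the brightest were called lower for CD44, a receptor of hyaluronan (4 of 9 others, all 9 between -0.44 and -0.03), and for ITGA4, an integrin subunit (1 of 3 others), both named after their values were seen.

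In the signalling path from the TNF and interleukin 1 receptors to NF-kB, 2 of 20 tested genes fell and 1 rose, with a median of 0.01. NFKBIA, the NF-kB inhibitor that NF-kB itself induces, read 2625 and 2818 in DMSO and 2044 and 1862 after shikonin (log2 change -0.48, SE 0.08, limma adjusted p = 0.00592). TAB2, an adaptor of the kinase TAK1, changed by -0.40 on its brighter probe set (limma adjusted p = 0.0205). It lost the call without DMSO array 2 or shikonin array 1. Its other probe set gave -0.43 and was not called (0.0518), while the mean of both was (0.0117). TNFAIP3, a feedback inhibitor, rose by 0.41 on its brighter probe set (limma adjusted p = 0.0497). It was no longer called whichever array was left out, or with no filter (0.0873). Its other probe set gave 0.31 and was not called (0.276), nor was the mean of both (0.0691).

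Next came 9 tested genes listed for the decay and stability of AU-rich messages such as that of TNF. Of these, 1 fell (3 at an unadjusted p under 0.05) and 0 rose (1 at an unadjusted p under 0.05), with a median of 0.09. These counts are by the brightest probe set. For RC3H1, named after its values were seen, 1 of its 2 other probe sets was called higher (the 2 gave 0.47 and 0.73). ZFP36L2, a decay factor, was called lower on all 3 of its probe sets, at -0.22, -0.44 and -0.48. On the brightest of them the call was lost with no filter on dim probe sets (0.138) and without DMSO array 1, DMSO array 2 or shikonin array 1 (0.144, 0.0618 and 0.263).

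**Figure D5:**
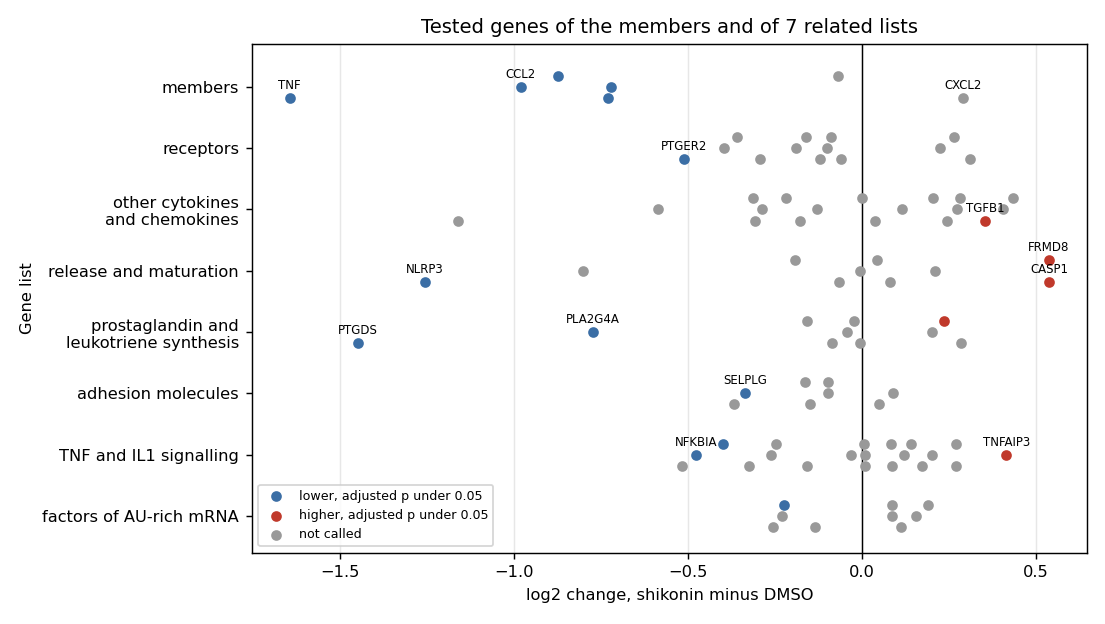
Each point is the log2 change (shikonin minus DMSO) of 1 tested gene on its brightest probe set, by list; blue points were called lower, red points higher and grey points not called. The members reach from -1.65 to 0.29, and the related lists lie mostly around 0. Farthest left in these lists are PTGDS, NLRP3, PLA2G4A, PTGER2 and the uncalled CCL20, AIM2, OSM and TAB1. Farthest right are CASP1 and FRMD8. The uncalled genes were named after their values were seen.

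The profile most like that of TNF over the 4 arrays was sought among all other genes tested, as the Euclidean distance between the log2 deviations of each array from the DMSO mean. The 5 nearest genes were RGS16, LCK, HBEGF, HLA-DRB6 and SERTAD1, at distances of 0.07 to 0.18 log2 units. RGS16, a regulator of G protein signalling, read 1311 and 1383 in DMSO and 425 and 397 after shikonin, a log2 change of -1.69. HBEGF, a growth factor that binds the EGF receptor, changed by -1.70 and SERTAD1 by -1.52. LCK and HLA-DRB6 were dim, with both shikonin arrays below the 40th percentile, so their distances depend on the added 9.94 and their likeness to TNF is not read further. LCK was not called (limma adjusted p = 0.0864). RGS16, HBEGF, SERTAD1 and HLA-DRB6 were called lower. These genes were picked for their likeness, so their values are a description.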

How the data were processed

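Total RNA of U937 cells was labelled by 3' amplification and hybridized to 4 arrays, 2 per group, grouped by the treatment in the labels. The authors deposited 1 linear intensity per probe set and array. The summarising software was not given in the sources used here. A mean without the lowest and highest 2% of probe sets was 500.1 on every array, so a change common to most transcripts would not show. No sample column was left out.

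Of 54675 probe sets, 41097 had 1 gene symbol in the platform annotation, 1801 several and 11777 none. Signals were transformed to log2(signal + 9.94), the 20th percentile of all values. The 62 controls and the dimmest 40% were removed, leaving 32768. Differences were tested two-sided with limma 3.58.1 in R 4.3.3 (lmFit, eBayes with a variance trend), adjusted over all probe sets kept by Benjamini-Hochberg. The fit was also run on simulated arrays whose noise depended on signal alone, as the variance trend assumes. That run therefore cannot check the trend. The brightest tested single-gene probe set stood for a gene. The members and the 7 lists were chosen with earlier results of these data known. Named genes were the members, up to 4 called genes of each list with the smallest p (2 where none was called), and the 5 genes nearest to TNF. The low number of arrays limits precision. The replicate numbers were not taken as pairs (correlation of same-numbered deviations 0.016).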

Additional observations from a re-analysis of the deposited data

How the results depend on the processing

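Over 12 alternatives (2 other pseudocounts, 2 other filters, no variance trend, quantile normalization, replicate block, mean over probe sets, and each array left out), the count of members called lower was 5 in all but 1. Members were counted on their brightest probe sets, except where the mean over probe sets was used. Of the 13 tested member probe sets, 10 were called lower as reported, 7 with no filter on dim probe sets, 9 with quantile normalization and 6 to 8 without 1 array. Without the variance trend both counts were 0, as were the counts of all genes called lower and higher; the cause was not tested. TNF, CCL2, IL1B, ICAM1 and CXCL8 kept their direction in all 12. CXCL2 ranged from -0.035 without DMSO array 1, where its sign turned, to 0.61 without DMSO array 2. Of all genes, 350 were called higher with no filter on dim probe sets, which raised the number tested to 19775. The replicate block raised genes called higher to 1254 and changed no member's call, but the samples share only a number. Leaving out 1 array gave 297 to 441 genes called higher and 590 to 667 called lower (425 and 641 without DMSO array 2, 352 and 664 without shikonin array 2), with a lone array assumed to vary like the other group. Signals near or below the 40th percentile of the arrays limit what can be said of CCL4, PTGS2 and 2 of the 3 CXCL2 probe sets.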
